A study of Sus scrofa and Rattus norvegicus with 8 samples.

Results

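In the upper layer of pig backfat, the receptor gene PDGFRA and the protease gene FAP were the most abundant of the adipose progenitor and stromal markers, CD34 and PI16 stood at an intermediate level, and NT5E and DPP4 were the lowest. The markers were chosen by name: PDGFRA, DPP4, PI16, CD34, THY1, FAP, CD55, ENG and NT5E, all genes used to recognise fibroblast-like progenitors. Of these 9 genes, 7 had an Ensembl gene ID with that symbol among the 25880 IDs of the pig table, and so a value. THY1 and CD55 had no such ID and are named only.

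White fat renews its adipocytes from fibroblast-like cells of the stroma that carry the platelet-derived growth factor receptor alpha. Within them, cells with high DPP4 and PI16 lie in the connective tissue between lobules and are regarded as early, multipotent progenitors, whereas cells closer to the adipocytes are more committed. CD34 and ENG are also made by endothelial cells, and NT5E (CD73), THY1 (CD90) and ENG (CD105) are classical surface markers of cultured mesenchymal stromal cells.

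The 6 pig libraries came from adult female Bama pigs aged 2 years, 1 animal per library, all with the same tissue and no treatment. Whole fat was used, so adipocytes and vessels contributed RNA beside the stroma. The study also holds 2 libraries of inguinal fat from pools of adult female SD rats aged 32 weeks, which are not used here because the rat IDs were not paired with symbols. Levels are TPM (transcript abundance scaled to the same sum in each library and corrected for transcript length), so levels of different genes can be set side by side. The files give no read counts, and the depth behind each value is unknown.

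Replicates 4 and 5 stood apart from the other libraries in the table as a whole. The nuclear genes with a symbol, 14844 in number, held 24.1 to 26.3% of the TPM in replicates 1, 2, 3 and 6, but 3.34% in replicate 4 and 4.73% in replicate 5. IDs without a symbol held 96.5 and 94.97% in these 2 libraries, and 54.7 to 62.9% in the other 4. Mitochondrially encoded genes held 0.209% in replicate 4 and 0.298% in replicate 5, against 10.8 to 21.2% in the other 4. For this reason each value is given as deposited and as rescaled TPM, in which the named nuclear genes of every library sum to 1000000. The factor was 3.80 to 4.15 in 4 libraries, 29.9 in replicate 4 and 21.1 in replicate 5. Rescaling did not remove the whole offset of the 2 libraries: over the 12130 named nuclear genes with a mean of at least 1 rescaled TPM, the median gene had a log2 difference of -0.49 between replicates 4 and 5 and the other 4, on the scale log2(rescaled TPM + 1). Differences of single markers are read against that shift. Because whole tissue was measured, fewer cells of a type and less RNA per cell cannot be told apart.

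The tissue label was checked against adipocyte genes. All 7 of the adipocyte list had a value, with means from 399 rescaled TPM for PNPLA2, a triglyceride lipase, to 18679 for FABP4, a fatty acid carrier. The 4 measured genes of the skeletal muscle list had means of 0.602 to 2.77. The fibroblast label was checked against 22 other progenitor and fibroblast genes, of which 21 had a value. Their median was 202 rescaled TPM, led by COL3A1 at 8026 ± 3333, VIM at 7125 ± 1113 and DCN at 6179 ± 1869 (SD, n = 6). These encode a fibrillar collagen, an intermediate filament and a matrix proteoglycan. The median of the 7 markers was 66.8 rescaled TPM, against 16.7 for all named nuclear genes and 25.5 for those with a mean of at least 1. DLK1, which marks preadipocytes in culture, had a mean of 0.0215.

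PDGFRA (ENSSSCG00000008841) binds the PDGF ligands and is the receptor by which adipose progenitors are usually defined. It has 24 exons on the plus strand of chromosome 8, at chr8:40966568-41021440 of Sscrofa11.1. Its deposited TPM were 40.7, 30.4 and 37.2 in replicates 1 to 3, 4.79 and 6.29 in replicates 4 and 5, and 48.8 in replicate 6. After rescaling the 6 values were 163, 126, 142, 143, 133 and 185, or 149 ± 21.8 (SD, n = 6). Replicates 4 and 5 then lay inside the range of the other pigs. The CV (SD relative to the mean) went from 0.657 as deposited to 0.146, the lowest of the 7 markers.

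FAP (ENSSSCG00000015896), fibroblast activation protein, is a membrane serine protease of activated and adipose fibroblasts. It has 26 exons on the minus strand of chromosome 15, at chr15:68831281-68902416. The deposited TPM were 42.6, 36.6, 42.5, 4.13, 5.11 and 38.7 in replicates 1 to 6. Rescaled, they were 170, 152, 162, 124, 108 and 147, or 144 ± 23.7 (SD, n = 6). Replicates 4 and 5 were the lowest pair, but the highest pig was only 1.58 times the lowest. Without them the level was 158 ± 10.6 (SD, n = 4) and the CV 0.0671, so these 4 pigs were nearly alike in FAP. PDGFRA and FAP lay above 91.9 and 91.6% of the named nuclear genes.

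DPP4 (ENSSSCG00000015894), known as CD26, is the closest relative of FAP and removes dipeptides from the ends of chemokines and incretins. It lies on the same chromosome and strand as FAP, at chr15:68661764-68742961 with 25 exons. The 2 genes are 88319 bases apart, and whether other genes lie between them was not examined. The DPP4 model on the assembly lacks its first coding bases, so the 25 exons may fall short of the full gene. Whether this touches the deposited levels was not tested. On the assembly, 398 of 756 aligned residues (52.6%) were identical between the encoded proteins. The transcripts shared 0 words of 31 bases, so long exact matches that could assign reads to either gene were not found. The stretch that starts at the active-site serine is shown for both because their levels are compared below. It opens an exon in each gene, is 30 bases long and is read on the minus strand of Sscrofa11.1, from chr15:68676793-68676822 for DPP4 and chr15:68835243-68835272 for FAP. Capitals mark the serine codon, and the stretches differ at 8 bases.
DPP4: TCAtatggagggtatgtaacctcaatggtc
FAP: TCCtatggaggttacgtttcatcactggcc

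In contrast to FAP, DPP4 was low and dominated by 1 animal. Its deposited TPM were 8.04, 3.13, 2.04, 0.230, 0.354 and 2.40 in replicates 1 to 6. Rescaled, they were 32.2, 12.97, 7.81, 6.89, 7.48 and 9.12, or 12.7 ± 9.76 (SD, n = 6). Replicate 1 was the highest on both scales, and 4.67 times the lowest after rescaling. Only 44.6% of the named nuclear genes had a lower mean. The ratio of DPP4 to FAP, which no scaling of a library can change, was 0.189 in replicate 1 and 0.0481 to 0.0854 in the other 5. Replicates 4 and 5 were at 0.0556 and 0.0693, within the range of the rest.

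PI16 (ENSSSCG00000001570), peptidase inhibitor 16, is a surface and secreted protein of fibroblasts and the usual partner of DPP4 in naming interstitial progenitors. It has 8 exons on the plus strand at chr7:32600952-32613505. Rescaled levels were 91.95, 77.9, 59.8, 25.9, 19.96 and 125 in replicates 1 to 6, from deposited TPM of 22.98, 18.8, 15.6, 0.865, 0.945 and 32.9. The mean was 66.8 ± 40.2 (SD, n = 6), and 88.7 ± 27.6 (SD, n = 4) without replicates 4 and 5. Those 2 libraries lay below all others, and replicate 6 was the highest. DPP4 and PI16 did not peak in the same pig: the ratio of DPP4 to PI16 ran from 0.0729 in replicate 6 to 0.375 in replicate 5, with 0.350 in replicate 1.

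CD34 (ENSSSCG00000039946) encodes a sialomucin of progenitors and endothelium, with 8 exons on the plus strand at chr9:134912793-134937763. Its deposited TPM were 19.4, 19.4, 21.9, 1.03, 1.57 and 25.6, and the rescaled levels 77.5, 80.5, 83.7, 30.7, 33.1 and 97.3 in replicates 1 to 6. The mean was 67.1 ± 28.1 (SD, n = 6). Replicates 4 and 5 were far below the others, which spread little among themselves, at 84.7 ± 8.76 (SD, n = 4).

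ENG (ENSSSCG00000005625), endoglin, is a co-receptor for TGF-beta and BMP ligands in endothelium and stroma. It has 14 exons on the minus strand at chr1:268309379-268343861. The deposited TPM were 9.50, 19.8, 18.3, 0.339, 0.308 and 12.5, and the rescaled levels 38.0, 82.3, 70.03, 10.1, 6.51 and 47.6 in replicates 1 to 6. It was the only marker whose highest value fell in replicate 2. ENG varied most between the lowest and highest pig, by 12.6 times after rescaling, with a mean of 42.4 ± 30.8 (SD, n = 6) and 59.5 ± 20.3 (SD, n = 4) without replicates 4 and 5.

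NT5E (ENSSSCG00000004291), CD73, turns extracellular AMP into adenosine. It has 9 exons on the plus strand at chr1:54400786-54450743. Its deposited TPM were 5.26, 3.03, 3.02, 0.405, 0.422 and 5.71, and the rescaled levels 21.1, 12.6, 11.5, 12.1, 8.91 and 21.7 in replicates 1 to 6. Replicates 1 and 6 were the highest, and replicate 4 lay between replicates 2 and 3. The mean was 14.6 ± 5.37 (SD, n = 6).

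**Figure D1:**
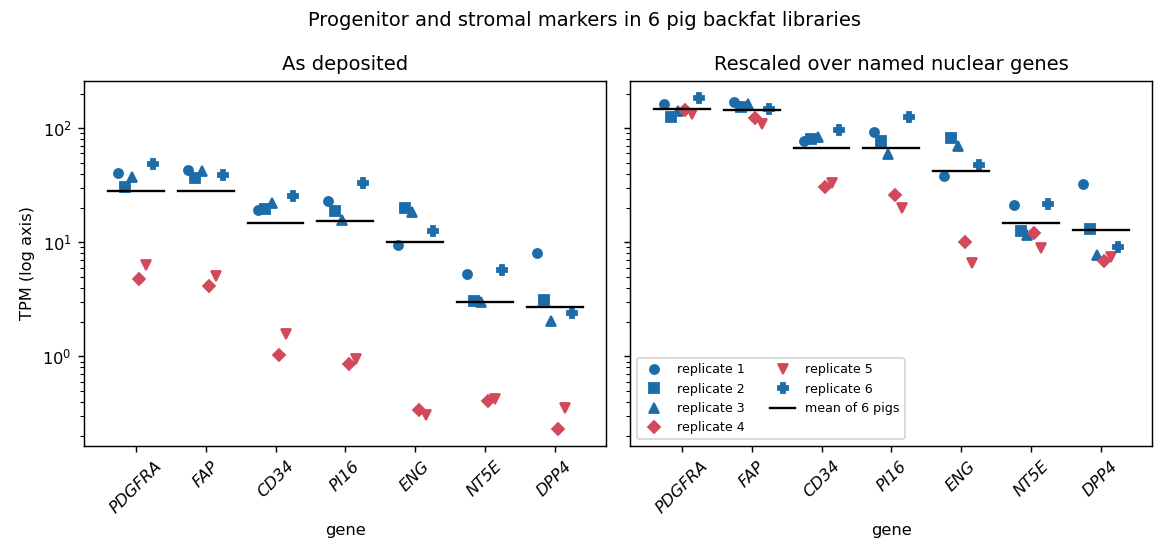
Level of the 7 markers with a value (x axis) in TPM on a log axis, as deposited (left) and rescaled over named nuclear genes (right), with 1 point per pig and a bar at the mean of the 6 pigs. As deposited, replicates 4 and 5 (red) lie below the other pigs for all 7 genes. After rescaling, PDGFRA in these libraries (143 and 133) lies among the other pigs, while ENG (10.1 and 6.51) stays far below them.

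All 7 markers were over 0.1 TPM in every library as deposited. At over 1 TPM, PDGFRA, CD34 and FAP were present in replicates 4 and 5, and all 7 in the other 4 libraries. The share of all genes over these thresholds was not computed. Deposited values of named nuclear genes were low as a whole in replicates 4 and 5, so these counts cannot be read as a trait of the markers. The spread between pigs narrowed on rescaling for 7 of 7 markers, and their median CV went from 0.765 to 0.419. Over the 8866 named nuclear genes with a mean of at least 10 rescaled TPM it went from 0.680 to 0.282. Without replicates 4 and 5 the median CV of rescaled TPM was 0.311 for the markers and 0.161 for all genes, both medians being over their own gene sets and with no test. The wide spread there came from DPP4 (0.729), ENG (0.341), NT5E (0.324) and PI16 (0.311), and the narrow one from FAP (0.0671), CD34 (0.103) and PDGFRA (0.167).

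The order of levels was compared within each pig, by an exact two-sided paired permutation test of log2(rescaled TPM + 1) for the 21 pairs of markers, with p-values adjusted over the pairs by Benjamini-Hochberg. Of these pairs, 14 had the same order in 6 of 6 pigs, and they are the 14 that passed at an adjusted p of 0.05. Each had an exact p of 0.03125 and an adjusted p of 0.046875. The exact p is the smallest that 6 pigs allow, so the test grades none of them further. PDGFRA and FAP were each above the other 5 genes in every pig. FAP exceeded CD34, the next below, by a log2 difference of 1.20 ± 0.52 (SD, n = 6), and the ratio ran from 1.51 to 4.03.

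Most genes next to each other in the order did not differ beyond their spread. PDGFRA exceeded FAP in 3 of 6 pigs, by a log2 difference of 0.05 ± 0.26 (SD; exact p = 0.594, adjusted 0.594). CD34 and PI16 differed by 0.14 ± 0.41, with CD34 higher in 4 of 6 pigs (exact p = 0.4375, adjusted 0.459). Their order turned with the scale, since the mean of deposited TPM was 14.8 ± 10.7 for CD34 and 15.4 ± 12.6 for PI16 (SD, n = 6). That of the top pair turned too, at 28.0 ± 18.4 for PDGFRA and 28.3 ± 18.5 for FAP as deposited. ENG had no fixed place: it lay below PI16 by 0.85 ± 0.78 (exact p = 0.125, adjusted 0.146) and above NT5E by 1.07 ± 1.29 (exact p = 0.125, adjusted 0.146), each in 4 of 6 pigs. It was 6.55 times NT5E in replicate 2 and 0.731 times in replicate 5. The 2 lowest genes, NT5E and DPP4, differed by 0.33 ± 0.61 (exact p = 0.25, adjusted 0.276), with DPP4 higher in replicates 1 and 2. CD34 against ENG and ENG against DPP4 were in the same order in 5 of 6 pigs (exact p = 0.0625, adjusted 0.082 for both).

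**Figure D2:**
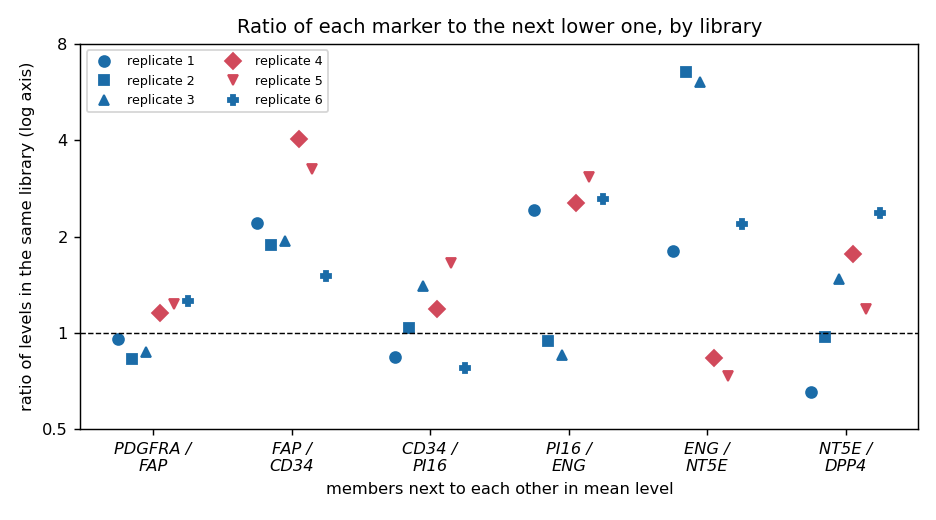
Ratio of each marker to the one next below it in mean rescaled TPM (x axis: the 6 neighbouring pairs, y axis: ratio within a library, log axis), with 1 point per pig and a dashed line at equal levels. FAP/CD34 alone lies above 1 in all 6 pigs (1.51 to 4.03), and the other 5 ratios fall on both sides of 1.

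Against the other 4 pigs, the markers in replicates 4 and 5 differed in how far they lay from them. As deposited, both libraries lay below the other 4 for 7 of 7 markers, as for 98.2% of the 12130 genes, and above them for 0 markers and 0.0742% of genes. On rescaled TPM, 5 of 7 were below (DPP4, PI16, CD34, FAP and ENG), against 50.1% of all genes. None of the 7 was above, against 10.4%. The count of 5 therefore stands beside a background in which many genes were below, and the markers differed widely in the size of the difference. The log2 difference between the means of replicates 4 and 5 and of the other 4 was -0.14 for PDGFRA, -0.44 for FAP, -0.58 for NT5E and -0.80 for DPP4. It was -1.38 for CD34, -1.87 for PI16 and -2.66 for ENG. The value for DPP4 rested largely on replicate 1, at 32.2 rescaled TPM. Its levels in replicates 4 and 5 (6.89 and 7.48) were just below those in replicates 3 and 6 (7.81 and 9.12).

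Set against all genes, ENG was in the low tail, since 0.948% of the 12130 genes had a lower difference. The share was 4.95% for PI16 and 12.5% for CD34. For DPP4 it was 33.9%, for NT5E 44.8%, for FAP 52.2% and for PDGFRA 68.6%, all in the body of the distribution. When each library was centred on its median gene, a step added after the shift of that gene was seen, PI16, CD34 and ENG were below (3 of 7, against 24.3% of genes). PDGFRA was then above (1 of 7, against 30.6%). On that scale PDGFRA and ENG thus lay on opposite sides of the other pigs, although on rescaled TPM PDGFRA overlapped them and as deposited it was below them.

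**Figure D3:**
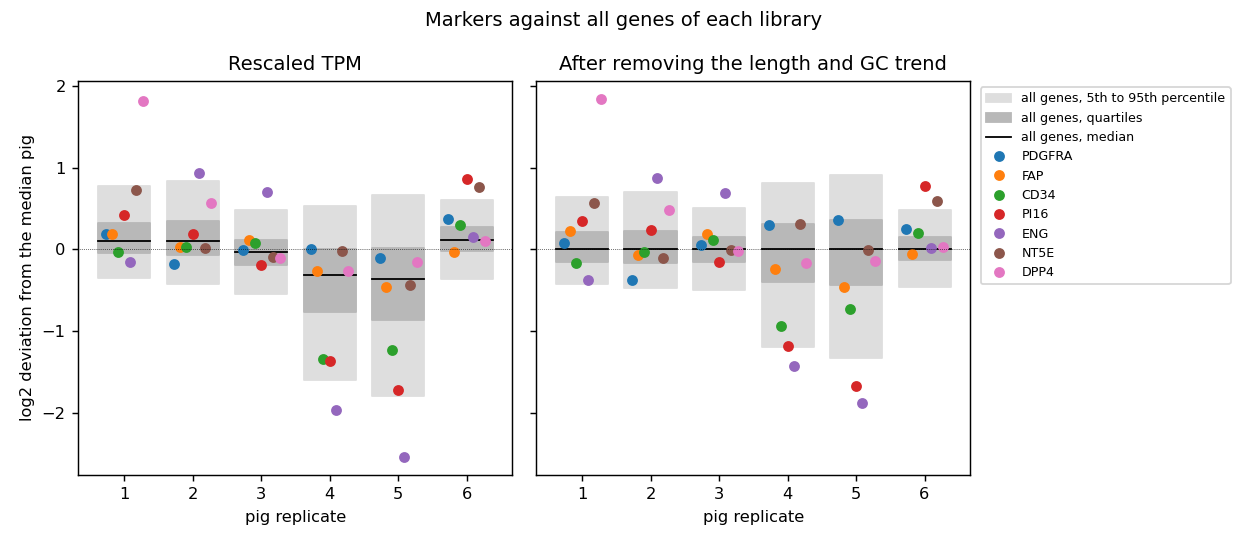
Log2 deviation of each marker from its median over the 6 pigs (y axis) in each library (x axis: pig replicate), on rescaled TPM (left) and with the length and GC trend taken out (right), with grey bands for the quartiles and the 5th to 95th percentiles of all genes and a black bar at their median. In replicates 4 and 5 ENG lies under the 5th percentile in both panels, PDGFRA lies above the median gene in both panels, and DPP4 stands out in replicate 1.

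Base composition differed along with these values. GC content of the longest RefSeq transcript was 40.0% for FAP, 42.6% for DPP4, 45.8% for PDGFRA and 47.1% for NT5E, and 55.0% for CD34, 55.9% for PI16 and 62.2% for ENG. The 3 markers with the largest differences were thus the 3 richest in GC. Over all genes the median log2 difference went from -0.28 in the lowest of 10 GC bins to -0.69 in bin 7 and -0.53 in the highest bin. After removal of the trend with length and GC, which could be done for 11295 genes, the difference was -1.96 for ENG, -1.73 for PI16, -0.86 for CD34, -0.74 for DPP4, -0.42 for FAP, -0.11 for NT5E and 0.33 for PDGFRA. The same 5 markers as before (DPP4, PI16, CD34, FAP and ENG) were below, against 28.7% of genes. PDGFRA (1 of 7) was above, against 23.2%. The median over genes was then -0.06, and over the markers -0.74, which is the value of DPP4. On this scale the deviation of DPP4 was -0.16 and -0.14 in replicates 4 and 5, -0.02 in replicate 3 and 1.84 in replicate 1. The part of RNA quality or of library preparation in these differences was not tested.

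**Figure D4:**
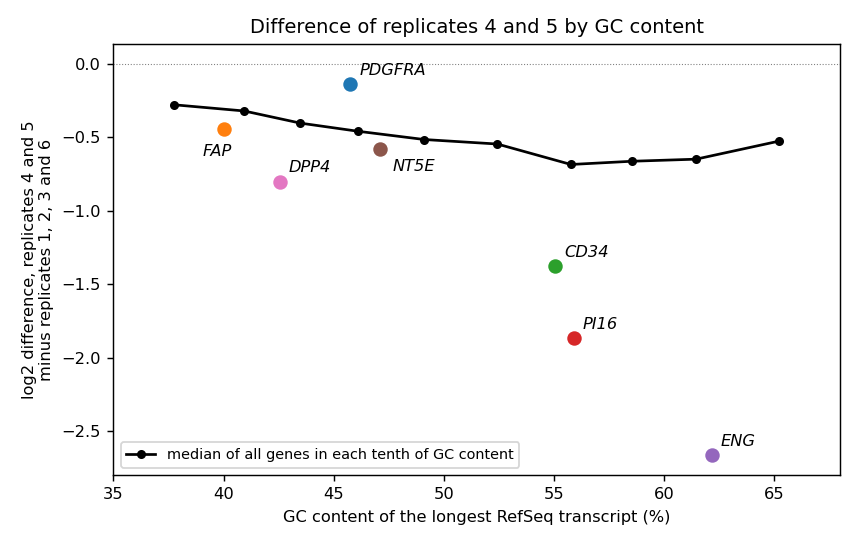
Log2 difference of rescaled TPM between replicates 4 and 5 and the other 4 pigs (y axis) against GC content of the longest transcript in percent (x axis), with the 7 markers as coloured points and the median of all genes in each of 10 GC bins as a black line. The line stays between -0.28 and -0.69, whereas CD34, PI16 and ENG, at 55.0 to 62.2% GC, lie at -1.38 to -2.66.

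Ratios within a library showed the same ordering without any scaling. PI16 was 0.421 to 0.675 of PDGFRA in replicates 1, 2, 3 and 6, and 0.181 and 0.150 in replicates 4 and 5. For CD34 the ratio to PDGFRA was 0.476 to 0.638 in the 4 libraries and 0.214 and 0.249 in the 2. ENG to PDGFRA was 0.234 to 0.653 in the 4 and 0.0708 and 0.0490 in the 2. These 3 ratios did not overlap, while that of NT5E did, at 0.0812 to 0.129 against 0.0846 and 0.0670. FAP and DPP4 overlapped too: PDGFRA was 1.16 and 1.23 times FAP in replicates 4 and 5 against 0.830 to 1.26. For DPP4 it was 20.8 and 17.8 times against 5.06 to 20.3. The share of all genes whose ratio to PDGFRA did not overlap was not computed. Since 68.6% of all genes had a lower difference than PDGFRA, the ratio of most genes to it would fall too. PDGFRA itself was 1.11 to 1.32 times PDGFRB, the receptor of mural cells and fibroblasts, in the 4 libraries, and 2.30 and 2.21 times in the 2.

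CD34 and ENG were also set against the 7 measured endothelial genes, since endothelium makes both. Of these genes 5 were below in replicates 4 and 5, beside 50.1% of all genes. The summed level of the list was 766 to 933 rescaled TPM there against 1238 to 1543. Most of that sum was PECAM1, at 449 and 563 in replicates 4 and 5 against 771 to 875. TEK, an angiopoietin receptor, and EGFL7, a secreted endothelial factor, overlapped the other pigs, EGFL7 at 98.8 and 134 against 95.7 to 119. The ratio of ENG to the endothelial gene was lower in both libraries than in all other pigs for 7 of 7 genes, from PECAM1, an adhesion molecule (0.0226 and 0.0116 against 0.0486 to 0.0940), to EGFL7 (0.103 and 0.0485 against 0.362 to 0.860). For CD34 it was lower for 4 of 7 genes, PECAM1, TEK, EGFL7 and ESAM. The ratio of CD34 to EGFL7 was 0.311 and 0.247 against 0.737 to 0.841. It overlapped for KDR, TIE1 and CDH5, the cadherin of endothelial junctions, where it was 0.458 and 0.542 against 0.355 to 0.580. The genes named from this list were chosen after their values were seen. Since 0.948% of all genes had a lower difference than ENG, its ratio to most genes would fall too. The 7 of 7 was thus nearly fixed in advance and tells nothing particular to endothelium.

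Markers of other cells were counted in the same libraries. Macrophage genes were below for 5 of 8, with a summed level of 343 to 523 rescaled TPM against 644 to 836. Pericyte and smooth muscle genes were below for 4 of 8 (578 to 676 against 747 to 1154), adipocyte genes for 3 of 7 with 1 above, and the other progenitor and fibroblast genes for 9 of 20 with 1 above. The lymphoid list was below for 2 of 7 with 1 above, and the skeletal muscle list for 3 of 3. All these counts stand beside 50.1% of genes below and 10.4% above. In the mesothelial list 2 of 6 genes had a value, and WT1 was at a mean of 0.129 rescaled TPM. HBB, the beta chain of haemoglobin, had a mean of 388 ± 317 (SD, n = 6), and 1 of 4 erythroid genes was below. The part of these cell types in the marker values was not tested.

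**Figure D5:**
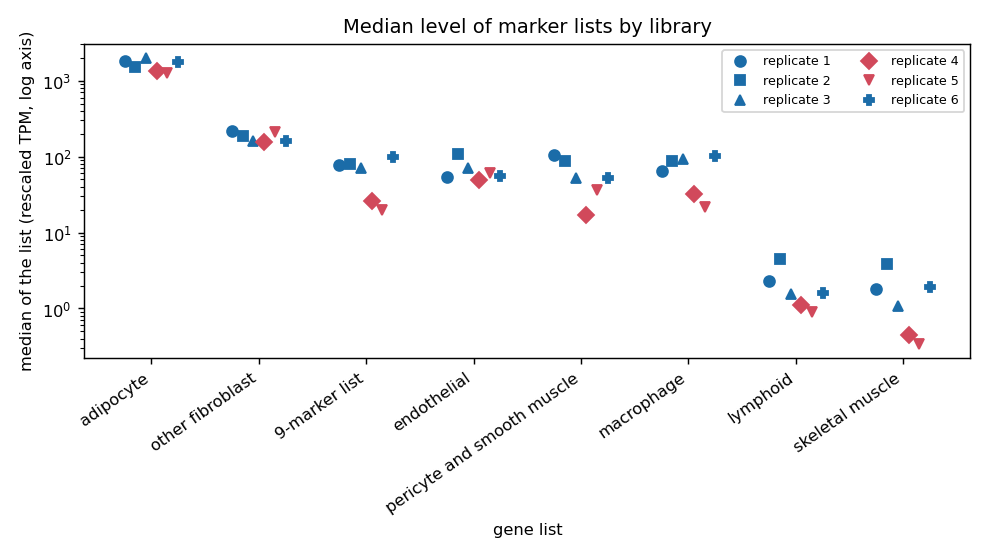
Median level of marker lists (x axis) in rescaled TPM (y axis, log axis), with 1 point per pig and replicates 4 and 5 in red. The 9-marker list, of which 7 have a value, is at 25.9 and 19.96 in replicates 4 and 5 against 70.03 to 97.3 in the other pigs, while the other fibroblast list is at 158 and 208 against 163 to 219. The median of 7 genes falls on different genes in different libraries, on PI16 in replicates 4 and 5, and PDGFRA and FAP differed far less.

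The genes that work with the markers were described from lists by function. For PDGFRA, all 4 PDGF ligands were measured, with a median of 55.2 rescaled TPM, from PDGFA at 66.7 ± 17.0 to PDGFB at 32.7 ± 11.6 (SD, n = 6). PDGFA signals through the alpha receptor, and PDGFB through both receptors. In replicates 4 and 5, 2 of the 4 ligands, PDGFA and PDGFB, were below the other pigs, against 50.1% of all genes. The mean of PDGFRA was above that of each ligand gene.

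The 12 TGF-beta and BMP partners of endoglin had a median of 90.7 rescaled TPM. TGFBR2, the type II receptor for TGF-beta, was the highest at 181 ± 49.2, and the ligand TGFB3 the lowest at 10.3 ± 4.85 (SD, n = 6). In replicates 4 and 5, 7 of the 12 were below and 0 above, against 50.1 and 10.4% of all genes. ACVRL1, the receptor through which endoglin acts in endothelium, was among the 7, at a mean of 29.9 ± 12.7 (SD, n = 6), a gene picked from the list after its value was seen.

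Around NT5E, 10 genes of adenosine handling had a median of 10.3, from ADORA1, the adenosine receptor of adipocytes, at 62.9 ± 18.8 to the transporter SLC29A2 at 0.854 ± 0.435 (SD, n = 6). Of the 9 with a mean of at least 1, 4 were below in replicates 4 and 5, against 50.1% of all genes. Beside DPP4 and FAP, 6 other prolyl peptidases were measured. DPP8, a cytosolic relative of DPP4, was the most abundant at 69.1 ± 5.85, and DPP6, a relative without enzyme activity, was the lowest at 0.215 ± 0.208 (SD, n = 6). Of the 4 with a mean of at least 1, 3 were below, beside the same 50.1% of all genes. DPP8 thus exceeded DPP4 by mean level, and FAP exceeded both.

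For CD34, 4 of 6 related sialomucins and partners had a value. EMCN, endomucin of venous and capillary endothelium, had the highest mean at 68.5 ± 23.8 (SD, n = 6), and 2 of the 4 were below. Although CD55 and THY1 had no value, their partners did. Of 7 complement genes 4 were measured, from C3, the central component, at 41.0 ± 25.4 to the protease CFI at 11.4 ± 5.52 (SD, n = 6), with 0 of 4 below and CFI above. Of 7 integrin and kinase partners of THY1 6 were measured, from the kinase FYN at 82.1 ± 31.5 to the leukocyte integrin chain ITGB2 at 20.6 ± 8.03 (SD, n = 6), and 4 of the 6 were below. These counts for partners of CD34, CD55 and THY1 stand beside 50.1% of all genes below and 10.4% above.

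The genes whose profile over the 6 pigs was closest to the median profile of the 7 markers were LRCH2 (Pearson's r = 0.999), ZCCHC4 (0.998) and TMEM52 (0.996), out of 8859 genes with a mean of at least 10 rescaled TPM. Without replicates 4 and 5 the values were 0.997, 0.993 and 0.978 over 4 pigs. Such likeness was common, as 24.3% of these genes had an r of at least 0.9, and the libraries, their scaling and replicates 4 and 5 are shared by all points.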

How the data were processed

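Total RNA of whole fat was depleted of ribosomal RNA, made into stranded libraries and sequenced on an Illumina HiSeq X instrument. Abundances were deposited by the authors as TPM per Ensembl gene ID, 1 table per species. The submitters' processing notes name Kallisto 0.43.0 and the build Sscrofa11.1, and the annotation release was not stated for these tables. TPM keep no counts, so precision comes only from the spread between the 6 pigs. The labels do not say whether animals were related.

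Symbols were matched by ID (14857 of 25880). Rescaled TPM set the 14844 named nuclear genes of each library to a total of 1000000, and 13 mitochondrially encoded genes were left out of that sum. Logs were log2(value + 1), which understates changes of low genes. Genes with a mean of at least 1 rescaled TPM served as background. Coordinates (1-based), exons, GC content and bases were taken from the RefSeq annotation and genome of Sscrofa11.1, and the length and GC trend was removed as the median of 10 by 10 bins. Replicates 4 and 5 were compared with the other pigs because of their low share of TPM in named nuclear genes, without a test. Scripts in Python 3.11.15 (numpy 2.4.6, pandas 2.3.3, Biopython 1.88) were tested on simulated data. Named genes were all members, the highest and lowest of each partner list, the 3 highest of the other fibroblast list and the 3 most alike profiles, of which 1 gene is not reported here. Cell type lists served as checks. The members and lists were chosen with earlier results of these data known. Alternatives were other scalings, filters and pseudocounts and leaving out libraries.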

Additional observations from a re-analysis of the deposited data

Results flagged for a closer look

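DPP4 in replicate 1 lay far from the other 5 pigs, at 8.04 TPM as deposited and 32.2 rescaled TPM, the next pig being at 3.13 and 12.97. Its gap to the nearest pig exceeded the critical share of the range of 6 samples in Dixon's test on both scales. With 7 markers on 2 scales, 14 sets of 6 values were examined and 2 were marked, both this one. By chance about 1 in 20 would be. The 2 scales hold the same libraries, so the 2 marks are not independent.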

How the results depend on the processing

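Of the 7 markers, the number with replicates 4 and 5 both below the other pigs was 5 on rescaled TPM, 3 after quantile normalization and 3 when rescaled TPM were centred on the median gene, beside 50.1, 25.8 and 24.3% of all genes. It was 5 after median-centring and with the length and GC trend taken out, beside 24.6 and 28.7% of all genes. Where 24.3 to 28.7% of all genes were below, the count was thus 3 or 5, depending on the setting. It was 7 as deposited or without mitochondrially encoded and ribosomal protein genes, where 98.2 and 98.5% of all genes were below. The median marker level was 66.8 rescaled TPM, 14.8 as deposited, 10.1 after median-centring, 12.6 after quantile normalization and 17.9 without mitochondrially encoded and ribosomal protein genes. These levels are in different units. Median-centred and quantile-normalized values keep the unit of deposited TPM, and the last scale sums over IDs without a symbol too. On rescaled TPM the median marker level was 55.1 to 74.4 with 1 pig left out and 84.7 without replicates 4 and 5. At over 1 TPM in place of 0.1 TPM, 3 of 7 markers were detected in every library, with no share of all genes computed beside it. The number of ordered pairs past the threshold was 14 with a pseudocount of 0.1 and on deposited TPM. Pairs with the same order in every pig numbered 14 to 15 with 1 pig left out, and 16 without replicates 4 and 5. With 5 pigs the exact p cannot go below 0.0625, so no test was made there. No paired analysis was possible because the pig and rat libraries, which share replicate numbers, were not compared. The order of markers was compared within each pig.

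The limits are few libraries, no counts and hence no depth, and levels in replicates 4 and 5 that rest on 3.34 and 4.73% of the TPM, so that small deposited values such as 0.230 TPM for DPP4 were multiplied by 21.1 to 29.9. Symbols were available for 14857 of 25880 IDs, and THY1 and CD55 were not analysed here.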
